A study of Mus musculus with 9 samples.

Results

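Neural progenitor genes were examined in mouse embryonic stem cells (ESCs) by RNA-seq. The 8 genes *Pax6*, *Nes*, *Sox1*, *Sox4*, *Sox11*, *Ncam1*, *Fabp7*, and *Zic1* were taken by their symbols from the 25239 gene symbols in the count tables. Of these 8 genes, 6 passed the filter on low counts and were among the 14125 genes tested. *Fabp7* and *Zic1* did not pass. The 8 genes and the gene lists used below were chosen with earlier results of these data known. Their shares set beside all genes tested are therefore descriptions and test no excess. The samples were E14 ESCs (strain given in the labels as 12910la), an ESC line with wild-type *Rbbp4* used as the control, and 2 *Rbbp4* mutant lines derived by CRISPR-Cas9. *Rbbp4Ins/Ins* carries an in-frame insertion on both alleles. *Rbbp4Ins/Del* carries the same insertion on 1 allele and an in-frame deletion on the other. All lines were grown in serum medium with leukemia inhibitory factor and no neural differentiation is described. Each line had 3 libraries, with 15838064 to 21366868 counted reads per library, and each mutant line is 1 clone, so the genotype and the clone cannot be told apart. The sources do not say that the libraries came from separate cultures, so the p-values measure the spread between these libraries, which may be technical.

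RBBP4 is a histone-binding protein shared by several chromatin complexes, among them Polycomb repressive complex 2 and the histone deacetylase complexes NuRD and SIN3. Neural progenitors are the dividing cells of the neural plate and of the ventricular zone from which neurons and glia arise. Transcription factors of the Pax, Sox, and Zic families mark these cells together with the intermediate filament Nestin, the adhesion molecule NCAM1, and the fatty acid carrier FABP7 of radial glia. In ESCs many such genes are typically low or silent and rise during neural differentiation. *Sox4*, *Sox11*, *Nes*, and *Ncam1* are not restricted to neural cells, and all were expressed in the control ESCs here.

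The labelled cell type was checked against its markers before the genes were compared. Of the 12 ES cell markers, all passed the filter in these libraries, and *Pou5f1* had a mean of 18059 normalized counts in the control, 16615 in *Rbbp4Ins/Ins*, and 17668 in *Rbbp4Ins/Del*. A normalized count is a raw count rescaled to the depth of an average library, where depth is the library total times its TMM factor. Of 54 other genes known from neural progenitors, 33 passed the filter, and 6 had no more than 3 reads in any control library. The 8 genes are described as genes known from neural progenitors, and whether the cultures held such cells was not tested. In bulk RNA, fewer cells that express a gene and less RNA per cell cannot be told apart.

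The mean level of the mutated gene *Rbbp4* was 10005 ± 99.1 in the control, 5604 ± 153 in *Rbbp4Ins/Ins*, and 10359 ± 238 in *Rbbp4Ins/Del*, in normalized counts (SD, n = 3 each). Its log2 fold change against the control was -0.84 in *Rbbp4Ins/Ins* and 0.050 in *Rbbp4Ins/Del*. Counts per gene do not show the edited bases, so these levels do not check the genotypes.

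Of the 8 genes, 4 were lower than the control in both mutant lines, *Pax6*, *Nes*, *Sox11*, and *Sox4*. The bases before their RefSeq start sites (GRCm38.p6) are shown to place these 4 genes on the genome and to give the composition of their promoters. Each sequence is written 5′ to 3′ in the direction of the gene, and capitals mark the GC box GGGCGG and the CCAAT box on either strand. Bases that GENCODE places inside the gene were left out, 15 for *Nes* and 14 for *Sox4*.

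Pax6, chr2:105668646-105668895, plus strand: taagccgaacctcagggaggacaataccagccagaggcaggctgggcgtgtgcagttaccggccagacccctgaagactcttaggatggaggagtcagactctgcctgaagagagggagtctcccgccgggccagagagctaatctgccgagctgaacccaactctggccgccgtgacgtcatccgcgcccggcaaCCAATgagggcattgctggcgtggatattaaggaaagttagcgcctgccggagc
Nes, chr3:87970843-87971077, plus strand: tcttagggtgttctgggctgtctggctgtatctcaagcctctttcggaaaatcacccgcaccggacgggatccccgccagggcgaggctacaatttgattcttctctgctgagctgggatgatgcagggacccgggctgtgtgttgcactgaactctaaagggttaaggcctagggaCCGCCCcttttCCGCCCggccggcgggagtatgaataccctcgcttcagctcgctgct
Sox11, chr12:27342719-27342968, minus strand: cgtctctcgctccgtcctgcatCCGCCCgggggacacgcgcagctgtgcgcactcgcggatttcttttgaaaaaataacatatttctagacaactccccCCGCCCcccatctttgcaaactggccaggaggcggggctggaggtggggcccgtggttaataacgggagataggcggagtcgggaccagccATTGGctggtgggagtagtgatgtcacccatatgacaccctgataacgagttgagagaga
Sox4, chr13:28953714-28953949, minus strand: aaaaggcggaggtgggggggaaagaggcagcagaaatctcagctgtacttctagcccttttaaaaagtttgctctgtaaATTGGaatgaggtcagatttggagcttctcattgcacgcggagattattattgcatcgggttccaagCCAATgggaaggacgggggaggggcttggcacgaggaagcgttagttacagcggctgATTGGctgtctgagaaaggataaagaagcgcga

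Windows of the 250 bases before the RefSeq start were found for 7 of the 8 genes, with 2 windows for *Pax6* and none for *Ncam1*. They were counted whole, with any bases that GENCODE places inside the gene. In the *Sox1* window these were most of the bases, from 12395295 to 12395518, so its counts describe mainly bases inside the gene. The *Pax6* window not printed lay wholly inside the gene, as did the ends of the *Nes*, *Sox4*, *Zic1*, and *Fabp7* windows. The windows of the 4 genes held 11 to 17 CG dinucleotides, against a median of 6 over 32851 windows of the same length. Of all windows, 66.5% held no more than the *Sox4* window, the lowest of these, and 78.3% no more than the *Sox11* window, the highest. The windows of *Sox1* and *Zic1* held 29 and 27. The *Fabp7* window held 4. A GC box was present in the windows of *Nes*, *Sox11*, *Sox1*, and *Zic1* and in 32.7% of all windows. A CCAAT box was present in those of *Pax6* (the window printed), *Sox11*, *Sox4*, *Sox1*, *Fabp7*, and *Zic1* and in 33.8% of all windows. The letters CATTGT (a Sox motif), ATGCAAAT (the octamer), and TATAAA were in none of the 8 windows, and in 10.7%, 1.60%, and 12.4% of all windows. Genes that fell and genes that did not fall both had windows with these boxes, and a match describes the letters only.

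*Pax6* encodes a paired-box and homeodomain transcription factor of the neural plate, eye, and forebrain. The gene is transcribed from the plus strand, on chromosome 2 of GRCm38 (the mm10 build), from 105668900 to 105697364. *Pax6* was at 666, 695, and 674 normalized counts in the control libraries, at 77.0, 68.8, and 75.1 in *Rbbp4Ins/Ins*, and at 27.6, 27.97, and 34.7 in *Rbbp4Ins/Del*. The libraries of the 3 lines did not overlap, with the control highest and *Rbbp4Ins/Del* lowest. The mean was 678 ± 14.6 in the control, 73.6 ± 4.26 in *Rbbp4Ins/Ins*, and 30.1 ± 4.002 in *Rbbp4Ins/Del* (SD, n = 3 each). *Pax6* thus fell by 89.1% in *Rbbp4Ins/Ins*, a log2 fold change of -3.19 (standard error 0.091) with an adjusted p of 3.1e-28 in edgeR's quasi-likelihood test. In *Rbbp4Ins/Del* it fell by 95.6%, a log2 fold change of -4.50 (standard error 0.11, edgeR adjusted p = 1.3e-30). Genes called and more than 8-fold lower made up 1.16% of the genes tested in *Rbbp4Ins/Ins* and 1.32% in *Rbbp4Ins/Del*, and *Pax6* was among them in both lines.

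*Pax6* was also the gene among the 8 that was called different between the mutant lines. It was 2.47-fold lower in *Rbbp4Ins/Del* than in *Rbbp4Ins/Ins*, a log2 difference of -1.31 (standard error 0.17, 95% interval -1.64 to -0.97, edgeR adjusted p = 1.9e-07). Across all genes, 10.8% differed between the mutant lines in either direction, 4.64% were lower and 6.17% higher in *Rbbp4Ins/Del*, and 0.0708%, or 10 genes, were called and more than 2-fold lower. In the raw counts the *Rbbp4Ins/Ins* libraries held 90, 61, and 71 reads of *Pax6* and the *Rbbp4Ins/Del* libraries 27, 31, and 30, so this difference rests on fewer reads than those against the control. Tested against a 2-fold change, the difference was not called.

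**Figure D1:**
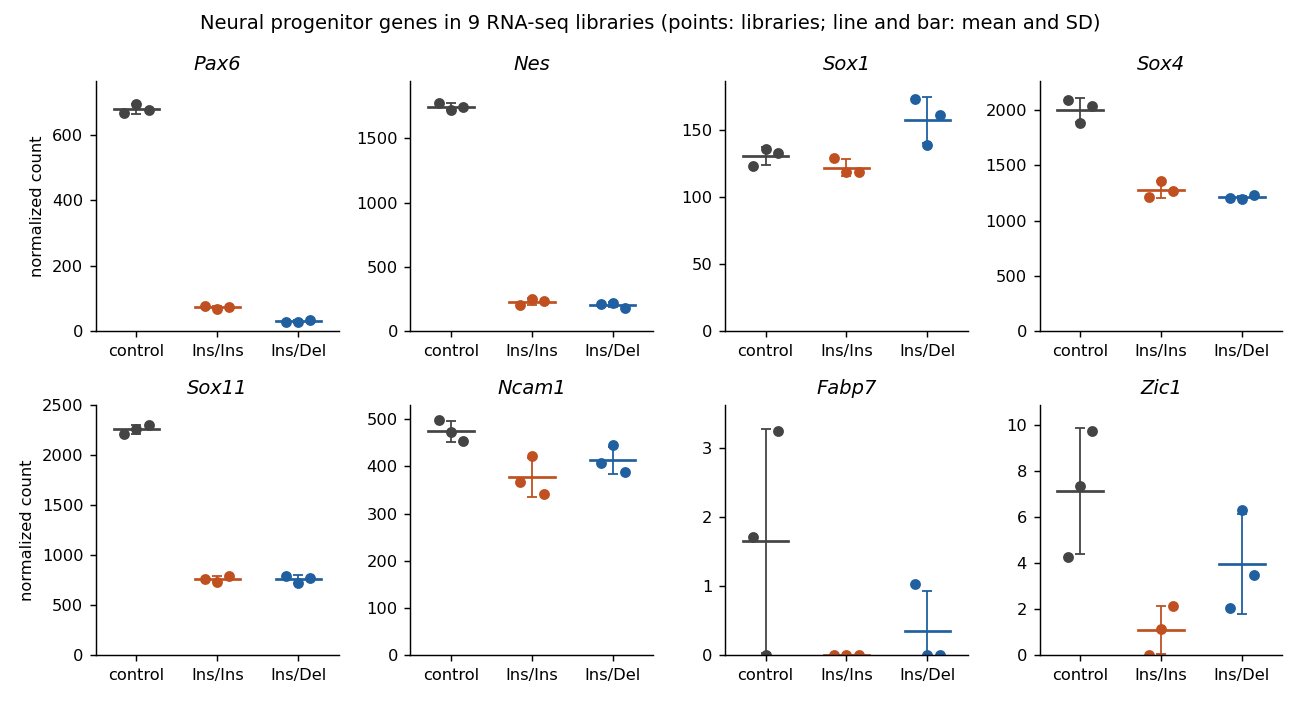
Normalized counts (y axis) of each of the 8 genes in the control, *Rbbp4Ins/Ins*, and *Rbbp4Ins/Del* (x axis), with a point for each library, a line at the mean, and a bar for the SD of 3 libraries. Each panel has its own y axis starting at 0, and the *Pax6*, *Nes*, *Sox11*, and *Sox4* points of both mutant lines lie below all control points, while the *Sox1* points of *Rbbp4Ins/Del* lie above them.

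*Nes* encodes Nestin, an intermediate filament of neural stem and progenitor cells that is also made by other dividing cells. It lies on the plus strand of chromosome 3 from 87971078 to 87980451. Control libraries held 1771, 1716, and 1745 normalized counts of *Nes*, the *Rbbp4Ins/Ins* libraries 204, 253, and 235, and the *Rbbp4Ins/Del* libraries 213, 219, and 184. All mutant libraries were far below the control, and the libraries of the mutant lines overlapped. *Nes* fell by 86.8% in *Rbbp4Ins/Ins*, from 1744 ± 27.8 to 230 ± 24.9 (SD, n = 3 each), and the log2 fold change was -2.93 (standard error 0.063, edgeR adjusted p = 5.7e-32). It fell by 88.2% in *Rbbp4Ins/Del*, to 205 ± 18.8 (SD, n = 3), at a log2 fold change of -3.08 (standard error 0.065, edgeR adjusted p = 1.2e-32). The direct comparison of the mutant lines gave a log2 difference of -0.15 with a 95% interval of -0.32 to 0.034 (edgeR adjusted p = 0.27). Thus *Nes*, unlike *Pax6*, was not called different between the mutant lines.

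*Sox11* and *Sox4* are SoxC transcription factors, which act in committed progenitors and young neurons and in other embryonic tissues. *Sox11* lies on the minus strand of chromosome 12 from 27334264 to 27342574. Its normalized counts were 2209, 2263, and 2306 in the control libraries, 764, 730, and 788 in the *Rbbp4Ins/Ins* libraries, and 792, 717, and 769 in the *Rbbp4Ins/Del* libraries. The mutant libraries overlapped each other at about the same level and were all below the control. *Sox11* fell by 66.3% in *Rbbp4Ins/Ins*, from 2259 ± 48.6 to 760.5 ± 28.9 (SD, n = 3 each), and the log2 fold change was -1.57 (standard error 0.045, edgeR adjusted p = 4.2e-28). It fell by 66.4% in *Rbbp4Ins/Del*, to 759.7 ± 38.4 (SD, n = 3), at a log2 fold change of -1.57 (standard error 0.045, edgeR adjusted p = 3.1e-28). Between the mutant lines the log2 difference was -0.0052, with a 95% interval of -0.11 to 0.099 (edgeR adjusted p = 0.96), and the mutants were not called different.

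*Sox4* lies on the minus strand of chromosome 13 from 28948919 to 28953713. Its normalized counts were 2088, 1882, and 2032 in the control libraries, 1209, 1360, and 1263 in the *Rbbp4Ins/Ins* libraries, and 1204, 1197, and 1226 in the *Rbbp4Ins/Del* libraries. Every mutant library was below every control library, although the gap was smaller than for *Sox11*. *Sox4* fell by 36.2% in *Rbbp4Ins/Ins*, from 2001 ± 106 to 1277 ± 76.5 (SD, n = 3 each), and the log2 fold change was -0.65 (standard error 0.044, edgeR adjusted p = 4.3e-16). It fell by 39.6% in *Rbbp4Ins/Del*, to 1209 ± 15.2 (SD, n = 3), at a log2 fold change of -0.73 (standard error 0.045, edgeR adjusted p = 1.6e-17). The mutant lines were not called different, with a log2 difference of -0.076 and a 95% interval of -0.17 to 0.020 (edgeR adjusted p = 0.28). In GENCODE, 54.6% of the exonic length of *Sox4* overlaps *Gm26735*, a gene on the opposite strand that has no row of its own in the count tables. The strand setting of the counting is not given in the sources used here, and reads of *Gm26735* cannot be told apart from those of *Sox4*.

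*Ncam1* encodes a cell surface adhesion molecule of neurons and their progenitors. It lies on the minus strand of chromosome 9 from 49502136 to 49798925. Control libraries held 498, 472, and 454 normalized counts of *Ncam1*, the *Rbbp4Ins/Ins* libraries 367, 422, and 341, and the *Rbbp4Ins/Del* libraries 407, 445, and 388. All mutant libraries were below the control libraries, by less than for the 4 genes above. *Ncam1* fell by 20.6% in *Rbbp4Ins/Ins*, from 475 ± 22.04 to 377 ± 41.2 (SD, n = 3 each), at a log2 fold change of -0.34 (standard error 0.074, edgeR adjusted p = 1.2e-04). In *Rbbp4Ins/Del* the mean was 413 ± 29.1 (SD, n = 3) and the log2 fold change of -0.20 was not called (standard error 0.073, edgeR adjusted p = 0.015). Without the *Rbbp4Ins/Del* library numbered 2, the highest of its line, the log2 fold change was -0.26 and was called (edgeR adjusted p = 0.0069). The log2 difference between the mutant lines was 0.14, with a 95% interval of -0.012 to 0.30 (edgeR adjusted p = 0.20), so the mutants were not shown to differ.

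*Sox1*, a SoxB1 factor and among the earliest genes of the neural plate, was not called in any comparison. It lies on the plus strand of chromosome 8 from 12395295 to 12400126. Control libraries held 123, 136, and 133 normalized counts of *Sox1*, the *Rbbp4Ins/Ins* libraries 129, 118, and 118, and the *Rbbp4Ins/Del* libraries 173, 139, and 161. The *Rbbp4Ins/Ins* libraries overlapped the control, and those of *Rbbp4Ins/Del* were above both other lines, the lowest of them only just, as were 35.9% of all genes tested against the control and 17.4% against *Rbbp4Ins/Ins*. The mean was 131 ± 6.84 in the control, 122 ± 6.19 in *Rbbp4Ins/Ins*, and 158 ± 17.1 in *Rbbp4Ins/Del* (SD, n = 3 each). The log2 fold change against the control was -0.091 (95% interval -0.33 to 0.15, edgeR adjusted p = 0.51) in *Rbbp4Ins/Ins* and 0.27 (95% interval 0.039 to 0.49, edgeR adjusted p = 0.034) in *Rbbp4Ins/Del*. The log2 difference between the mutant lines was 0.36 (95% interval 0.13 to 0.59, edgeR adjusted p = 0.023). Both p-values of *Rbbp4Ins/Del* miss the limit of 0.01 used here, and they would pass a limit of 0.05. A decline of the size seen for *Pax6*, *Nes*, or *Sox11* lies outside the intervals of *Sox1*.

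*Zic1* and *Fabp7* were close to the limit of detection in every line. *Zic1*, a zinc finger factor of the dorsal neural tube and cerebellum, lies on the minus strand of chromosome 9 from 91358058 to 91365810. The control libraries had 5, 7, and 9 reads of *Zic1*, the *Rbbp4Ins/Ins* libraries 0, 1, and 2, and the *Rbbp4Ins/Del* libraries 2, 7, and 3. The *Rbbp4Ins/Ins* libraries were all below the control and at or under a floor of 3 reads per library, while *Rbbp4Ins/Del* overlapped both other lines. The control mean was 2.34 times that floor, a ratio that leaves out sampling error and sets no firm minimum for the fall. An exact two-sided permutation test of the normalized counts gave p = 0.1 for *Rbbp4Ins/Ins* against the control, which is the smallest p that 3 libraries against 3 allow, and p = 0.2 for *Rbbp4Ins/Del*. *Fabp7*, on the plus strand of chromosome 10 from 57784881 to 57788450, had 2, 0, and 3 reads in the control, 0 in each *Rbbp4Ins/Ins* library, and 1, 0, and 0 in *Rbbp4Ins/Del*. All 3 lines were at or under the floor, and a difference in *Fabp7* was not detectable at this depth.

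Counted over the 6 genes tested, 5 were called lower in *Rbbp4Ins/Ins* and 4 in *Rbbp4Ins/Del*, and none was called higher in either line. At an unadjusted p under 0.05 in edgeR, 1 gene (*Sox1*) was higher in *Rbbp4Ins/Del* and 0 in *Rbbp4Ins/Ins*, and DESeq2 called 0 higher in both. Across all genes tested, 29.4% were called lower and 29% higher in *Rbbp4Ins/Ins*, 31.9% lower and 30.6% higher in *Rbbp4Ins/Del*, and 58.4% and 62.5% were called in either direction. The share more than 2-fold lower was 8.96% in *Rbbp4Ins/Ins* and 10.2% in *Rbbp4Ins/Del*. The called genes had every mutant library below every control library, as had 34.2% of all genes tested in *Rbbp4Ins/Ins* and 36.9% in *Rbbp4Ins/Del*. The 4 genes called lower in both lines compare with 26.7% of all genes tested that were called lower in both. The 3 genes more than 2-fold lower in both lines, *Pax6*, *Nes*, and *Sox11*, compare with 8.1% of all genes. Both comparisons use the same control libraries. The 8 genes were chosen with earlier results of these data known, so these shares are descriptions and test no excess. The median log2 fold change of the 6 genes was -1.11 in *Rbbp4Ins/Ins* and -1.15 in *Rbbp4Ins/Del*, beside medians of 0.0038 and -0.011 over all genes tested. By rank among the 14125 log2 fold changes, *Pax6* stood at place 133 from the lowest in *Rbbp4Ins/Ins* and 43 in *Rbbp4Ins/Del*, *Nes* at 181 and 177, and *Sox11* at 667 and 748.

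**Figure D2:**
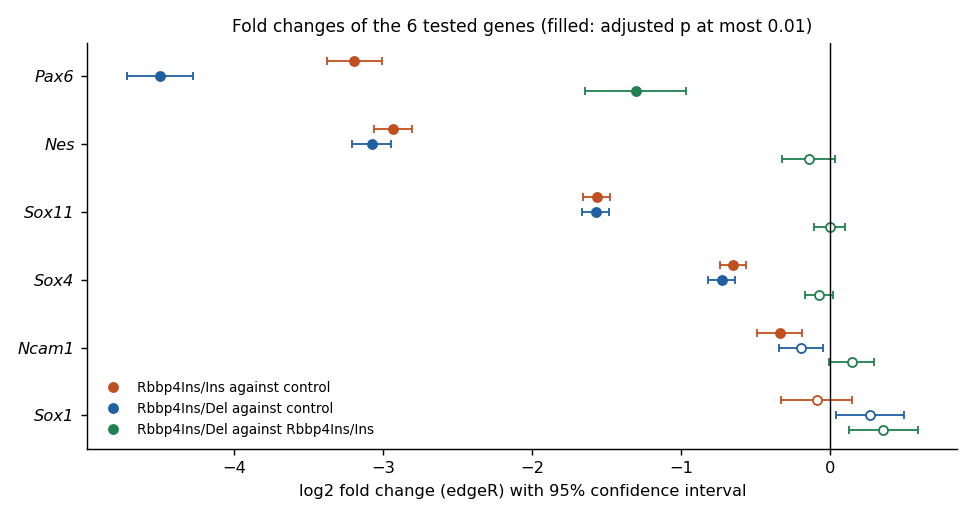
Log2 fold changes from edgeR (x axis) of the 6 genes tested (y axis), with 95% confidence intervals, for *Rbbp4Ins/Ins* against the control, *Rbbp4Ins/Del* against the control, and *Rbbp4Ins/Del* against *Rbbp4Ins/Ins*. Filled points are called at an adjusted p of at most 0.01, and the values against the control run from -4.50 for *Pax6* to 0.27 for *Sox1*.

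To compare levels between genes, normalized counts were divided by the exonic length in kb, the merged length of all annotated exons of the gene. Transcripts can be shorter than this, so the order between genes depends on the length used. In the control the order was *Sox4* at 417 ± 22.1 normalized counts per kb, *Nes* at 272 ± 4.33, *Sox11* at 272 ± 5.84, *Pax6* at 58.0 ± 1.25, *Ncam1* at 54.8 ± 2.54, and *Sox1* at 27.1 ± 1.42 (SD, n = 3 each). *Fabp7* and *Zic1* followed at 1.32 ± 1.30 and 1.25 ± 0.48. In this order the libraries of *Nes* and *Sox11*, of *Pax6* and *Ncam1*, and of *Fabp7* and *Zic1* overlapped. The mutant lines kept *Sox4* in front at 266 ± 16.0 and 252 ± 3.17 counts per kb and *Sox11* after it at 91.5 ± 3.47 and 91.4 ± 4.62. *Pax6* moved behind *Ncam1*, *Nes*, and *Sox1*, to 6.30 ± 0.36 counts per kb in *Rbbp4Ins/Ins* and 2.57 ± 0.34 in *Rbbp4Ins/Del*. *Nes* was at 35.9 ± 3.88 in *Rbbp4Ins/Ins*, above *Sox1* at 25.3 ± 1.28, and at 32.0 ± 2.92 in *Rbbp4Ins/Del*, where its libraries overlapped those of *Sox1* at 32.6 ± 3.55.

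**Figure D3:**
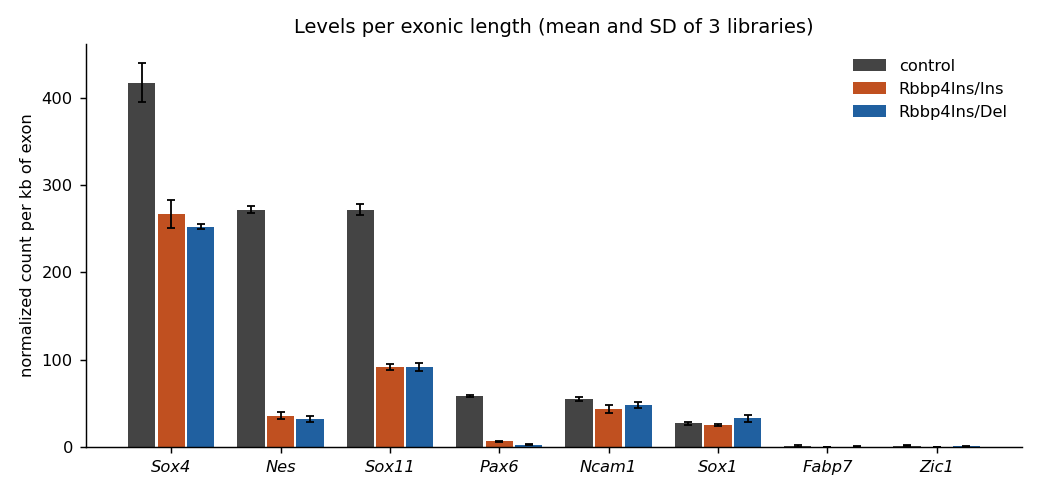
Mean normalized counts per kb of exon (y axis, from 0) of the 8 genes (x axis) in the control and both mutant lines, with bars for the SD of 3 libraries. *Sox4* was highest in each line, and *Nes* was level with *Sox11* in the control at 272 counts per kb but below it in both mutants.

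The 8 genes belong to families whose other members were compared next. Among the SoxB1 and SoxC factors, *Sox1*, *Sox2*, *Sox3*, *Sox4*, *Sox11*, and *Sox12*, 4 of 6 were lower in both mutant lines. This is 66.7%, beside 26.7% of all genes tested, and *Sox4* and *Sox11* are themselves among the 8 genes. *Sox3*, a SoxB1 factor of the epiblast and neural plate, had means of 206, 53.7, and 69.6 normalized counts in the control, *Rbbp4Ins/Ins*, and *Rbbp4Ins/Del*, with log2 fold changes of -1.92 and -1.57 (edgeR adjusted p = 1.4e-15 and 1.1e-13). *Sox12*, the remaining SoxC factor, had log2 fold changes of -0.64 and -0.81 (edgeR adjusted p = 2.3e-15 and 2.0e-18), close to those of *Sox4*. *Sox2*, which acts in pluripotency as well as in neural progenitors, was slightly higher in *Rbbp4Ins/Ins* at a log2 fold change of 0.12 (edgeR adjusted p = 1.9e-04) and was not called in *Rbbp4Ins/Del* at 0.017. All 3 SoxC factors thus fell in both lines, also with the other scalings tried, and of the SoxB1 factors 1, *Sox3*, was lower in both.

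Of the other Sox genes on the list of progenitor genes, *Sox21* fell in both lines, with log2 fold changes of -1.82 and -2.01 (edgeR adjusted p = 3.3e-17 and 3.0e-18), *Sox8* was not called at 0.50 and 0.61, and *Sox9* was too low to test, with means of 7.76, 4.29, and 3.77 normalized counts. Of the Zic genes, *Zic2* had log2 fold changes of -0.067 and -0.088, neither of them called, and *Zic5* fell in both lines at -0.42 and -0.54 (edgeR adjusted p = 3.3e-05 and 4.7e-07). *Zic4* had no reads in the control or in *Rbbp4Ins/Ins*. Of the other Pax genes, *Pax5* was higher in *Rbbp4Ins/Del* at a log2 fold change of 1.13 (edgeR adjusted p = 0.0025, a call that DESeq2 did not make) and not called in *Rbbp4Ins/Ins* at 0.65, and *Pax8* was not called at -0.40 and -0.23. *Pax2*, *Pax3*, and *Pax7* were too low to test, *Pax3* with means of 11.0, 0.73, and 0.69 normalized counts and *Pax7* with 1.34, 4.87, and 6.29.

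Of the 33 tested genes among the 54 others known from neural progenitors, 22 were called lower and 1 higher in both mutant lines, beside 26.7% and 25.6% of all genes tested. The median log2 fold change of the 33 was -1.48 in *Rbbp4Ins/Ins* and -1.50 in *Rbbp4Ins/Del*. Some of the 33 had few reads in both mutant lines and passed the filter through the control libraries alone. Such genes could only be found lower, and the counts and medians are not corrected for this. Among those with a mean above 20 normalized counts, the lowest were *Cdh2*, which encodes N-cadherin, *Pou3f1*, a POU factor of the epiblast and neural plate, *Meis2*, a homeobox cofactor, *Fut4*, which makes the SSEA1 epitope, and *Ptn*, a secreted growth factor. *Cdh2* went from 301 normalized counts in the control to 18.7 and 18.5 in the mutant lines, log2 fold changes of -4.01 and -4.01 (edgeR adjusted p = 1.7e-24 and 1.5e-24). *Pou3f1* went from 1660.2 to 164 and 131, at -3.33 and -3.68. *Meis2* had log2 fold changes of -3.31 and -2.56, *Fut4* of -3.39 and -2.42, and *Ptn* of -2.52 and -3.13, all called in both lines. The genes of this list that fell least were *Zic5*, *Msi1*, an RNA-binding protein of progenitors at -0.89 and -1.09, *Vim*, an intermediate filament at -1.28 and -0.94, and *Zfp521*, a zinc finger factor at -1.13 and -1.50. *Plagl1*, an imprinted zinc finger gene, was the exception that rose in both lines, at 1.97 and 2.98 (edgeR adjusted p = 7.5e-13 and 4.8e-20).

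On chromosome 14, 59.9% of 461 tested genes were lower in both mutant lines, against 25.6% of the genes on all other chromosomes. None of the 8 genes lies there, but 5 of the 33 tested progenitor genes do, *Sox21*, *Zic2*, *Zic5*, *Otx2*, and *Hesx1*. Without these 5 genes, 19 of the remaining tested genes of the progenitor list were lower in both lines, so the count and the number tested both fell. The part of the chromosome in these changes was not tested.

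Of 30 genes of neuronal differentiation, 21 passed the filter, and 12 were lower and 6 higher in both lines, which is 57.1% and 28.6% beside 26.7% and 25.6% of all genes tested. The medians were -0.76 and -0.81, and the share that was higher lay near that of all genes. *Insm1* and *Neurod1*, transcription factors of newborn neurons, had log2 fold changes of -3.66 and -2.47 and of -2.88 and -2.97 (edgeR adjusted p of at most 3.8e-18). *Gap43*, a growth cone protein, *Nrcam*, an adhesion molecule, and *Syp*, a synaptic vesicle protein, had values between -2.17 and -2.78 in *Rbbp4Ins/Ins* and between -2.45 and -2.51 in *Rbbp4Ins/Del*. On the other side, *Mapt*, which encodes the microtubule protein tau, went from 137 normalized counts in the control to 1833 and 2063, log2 fold changes of 3.74 and 3.91 (edgeR adjusted p = 3.6e-36 and 3.5e-37). *Tubb3*, a neuronal tubulin, rose at 1.04 and 1.46, *Elavl3*, an RNA-binding protein, at 1.02 and 1.13, *L1cam*, an adhesion molecule, at 0.56 and 0.83, and *Stmn2*, a stathmin, at 0.31 and 0.40.

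**Figure D4:**
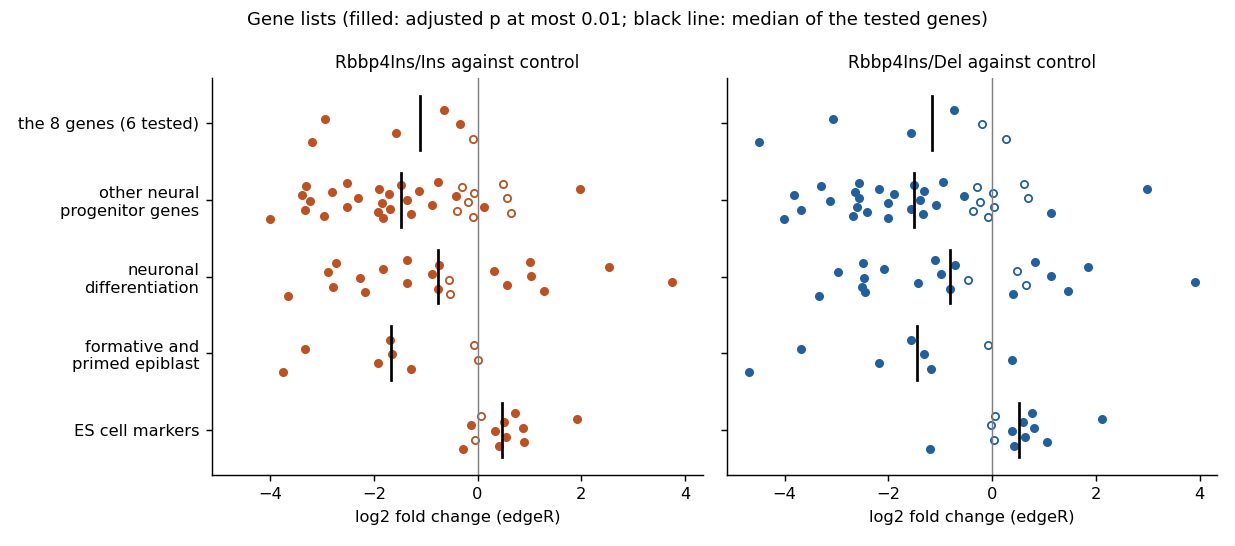
Log2 fold changes from edgeR (x axis) of the tested genes of 5 lists (y axis) in *Rbbp4Ins/Ins* (left) and *Rbbp4Ins/Del* (right) against the control, with filled points for an adjusted p of at most 0.01 and a black line at the median. The medians of the other progenitor genes lie at -1.48 and -1.50 and those of the ES cell markers at 0.46 and 0.51, and the neuronal differentiation genes spread to both sides of 0.

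REST is a repressor of neuronal genes in non-neuronal cells, and RBBP4 is found in complexes with its corepressors. Of *Rest* and 8 corepressor genes, 4 were higher and 2 lower in both mutant lines, 44.4% and 22.2% beside 25.6% and 26.7% of all genes tested, so the share that was lower did not exceed that of all genes. *Rest* had log2 fold changes of 0.19 and 0.30 (edgeR adjusted p = 1.4e-04 and 8.5e-08), *Hdac2* of 0.47 and 0.61, *Hdac1* of 0.18 and 0.25, and *Ctdsp1*, a phosphatase, of 0.18 and 0.26. DESeq2 did not call *Rest* and *Ctdsp1* in *Rbbp4Ins/Ins*. *Rcor2*, a partner of the histone demethylase KDM1A, fell at -0.69 and -0.60 (edgeR adjusted p = 1.9e-19 and 7.8e-18), and *Sin3a* fell at -0.13 and -0.26. These changes were smaller than those of *Pax6*, *Nes*, and *Sox11*.

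Genes of other cell states moved in the same libraries, and their part in the changes of the 8 genes was not tested. Beside the counts that follow, 25.6% of all genes tested were higher and 26.7% lower in both mutant lines. Of the 12 ES cell markers, 8 were higher and 1 lower in both lines, and their summed level was 82016 to 85465 normalized counts in the control libraries, 106843 to 107280 in *Rbbp4Ins/Ins*, and 110206 to 113727 in *Rbbp4Ins/Del*. *Tbx3* rose most, at log2 fold changes of 1.91 and 2.12, followed by *Zfp42* at 0.90 and 1.06, and *Dppa3* fell at -0.28 and -1.21. Of the 8 markers of formative and primed epiblast, the state next to the naive ESC, 6 were lower in both lines, and their sum was 18764 to 19966 in the control, 8054 to 8152 in *Rbbp4Ins/Ins*, and 8518 to 8880 in *Rbbp4Ins/Del*. *Fgf5*, the defining growth factor of that state, had log2 fold changes of -3.75 and -4.69, and *Otx2* of -1.68 and -2.19, while 4 of these 8 markers, *Otx2*, *Pou3f1*, *Sox3*, and the uncalled *Zic2*, also stand among the progenitor genes above. *Lef1*, also on this list, was higher in *Rbbp4Ins/Del* at 0.38 (edgeR adjusted p = 3.0e-07) and not called in *Rbbp4Ins/Ins* at 0.018. *Dnmt3b* made up most of the sum in each line, with means of 10335, 4271, and 4540 normalized counts. Of the fibroblast markers, 5 of 6 tested were lower in both lines, with sums of 729 to 825 in the control, 323 to 343 in *Rbbp4Ins/Ins*, and 396 to 428 in *Rbbp4Ins/Del*. The sixth, *Thy1*, a surface glycoprotein that neurons also make, rose from 45.7 normalized counts to 246 and 312 and made up most of the mutant sums. Without it, a choice made after the data were seen, the other 8 markers summed to 682 to 779 in the control, 87.7 to 92.5 in *Rbbp4Ins/Ins*, and 93.03 to 104 in *Rbbp4Ins/Del*. *Col1a1* had means of 287, 17.0, and 24.4 normalized counts, and *Lum* was at or under the floor in all 3 lines.

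For each of the 6 tested genes, the 2 genes with the most similar pattern were found among 12711 genes by the root mean square difference of their centred log2 levels over the 9 libraries. *Kctd12b* and *Fgf5* were most like *Pax6*, with differences of 0.22 and 0.25, and *Neurod1* and *Igsf10* most like *Nes*, with 0.13 for each. For *Sox11* they were *Slc27a2* and *Rcbtb1* (0.050 and 0.059), for *Sox4* *Slc30a9* and *Cul4b* (0.039 and 0.041), for *Ncam1* *Tpbg* and *Enox1* (0.066 and 0.070), and for *Sox1* *Lef1* and *Pqlc2* (0.073 and 0.076). *Kctd12b* had means of 340, 31.3, and 14.1 normalized counts in the control, *Rbbp4Ins/Ins*, and *Rbbp4Ins/Del*, and so shared with *Pax6* a lower level in *Rbbp4Ins/Del* than in *Rbbp4Ins/Ins*. *Rcbtb1* and *Enox1* lie on chromosome 14. The 9 libraries come from 3 lines and each gene is measured in the same libraries, so the likeness of patterns is a description.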

How the data were processed

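Total RNA of 9 ESC samples was made into libraries with an mRNA kit, sequenced as paired ends, aligned to mm10 with STAR 2.7.3, and counted per gene with HTSeq, according to the study's methods and the submitters' processing notes. The deposited values are whole-number counts per gene symbol with no normalization, and the authors tested them with DESeq2 1.22.2. The annotation, HTSeq version, and strand setting are not given in the sources used here. Groups follow the genotype labels and replicate numbers the titles.

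Library sizes were scaled with TMM factors and low genes removed with filterByExpr (edgeR 4.0.16, R 4.3.3). The filter asks for enough reads in as few as 3 libraries, so a gene can pass through 1 line alone. A quasi-likelihood model with 3 groups was fitted to all 9 libraries. P-values were adjusted by Benjamini-Hochberg over 14125 genes, and genes were called at an adjusted p of at most 0.01. The code was tested on simulated counts. Tables and figures used Python 3.11.15, pandas 2.3.3, scipy 1.17.1, and matplotlib 3.10.9. Positions come from GENCODE M21 and promoters from RefSeq, both on GRCm38.

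The 8 genes and all gene lists were chosen with earlier results of these data known. Named genes are the 8 genes, *Rbbp4*, listed Pax, Sox, and Zic genes (1 of them is not reported here), up to 5 genes with the largest and 5 with the smallest mean log2 fold change per list (called in both lines in 1 direction, mean above 20 normalized counts), and 2 genes of like pattern for each gene tested. *Pou5f1*, *Tfap2c*, *Lum*, *Elf5*, *Hesx1*, *Col4a1*, and *T* are named outside this rule, after their values were seen. Deviations from group means correlated at -0.040 to 0.034 between libraries with the same number in different lines, and at -0.050 to 0.088 between other libraries, so the numbers do not pair the libraries. Replicates differed by more than sampling noise in all 9 pairs. Alternatives were DESeq2 1.42.0, its size factors, library totals without TMM, every gene with any read, fits of only the compared lines, a replicate block, a limit of 0.05, the hypothesis of a 2-fold change, each library left out, and, added after the data were seen, counts of the lists without chromosome 14. ChIP-seq libraries were not analysed here.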

Additional observations from a re-analysis of the deposited data

Results flagged for a closer look

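*Pax6* is listed here because its change against the control differed between the mutant lines, with a log2 difference of -1.31 between *Rbbp4Ins/Del* and *Rbbp4Ins/Ins* in the edgeR test of the difference itself. The other genes named in the text that met the same test are given with their log2 difference, *Rbbp4Ins/Del* against *Rbbp4Ins/Ins*. Lower in *Rbbp4Ins/Del* were *Kctd12b* at -1.13, *Dppa3* at -0.93, *Krt7* at -0.74, *Tfap2c* at -0.70, *Krt18* at -0.53, *Otx2* at -0.51, *Sox12* at -0.18, *Sin3a* at -0.13, and *Sox2* at -0.10. Higher in *Rbbp4Ins/Del* were *Insm1* at 1.18, *Plagl1* at 1.01, *Rbbp4* at 0.89, *Sox7* at 0.59, *Tubb3* at 0.42, *Lef1* at 0.36, *Dnmt3a*, *Thy1*, and *Vim* at 0.34 each, *Tbx3* at 0.20, *Mapt* at 0.17, *Zfp42* at 0.15, *Hdac2* at 0.14, and *Fgf4* at 0.12. *Col4a1*, at 0.62, was also higher in *Rbbp4Ins/Del*. The edgeR adjusted p-values of these other genes ran from 4.1e-24 for *Rbbp4* to 0.0091 for *Sox12*. Across all genes tested, 10.8% were called in this comparison.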

How the results depend on the processing

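Of 324 log2 fold changes of the 6 tested genes under 18 alternatives, 310 kept their direction and their side of the threshold. The alternatives without chromosome 14 and at a limit of 0.05 reused the main fit, so their log2 fold changes are the same by construction. The first could change no call of these genes, and the second could only add calls. The 4 genes lower in both lines stayed called in each line under every alternative, except *Sox4* (-0.65 and -0.73) in the test against a 2-fold change, where *Ncam1* in *Rbbp4Ins/Ins* (-0.34) and the *Pax6* difference between the mutants (-1.31) were also not called. *Ncam1* in *Rbbp4Ins/Del* became called with scaling by total counts (-0.21), with the replicate number as a block (-0.20), at a limit of 0.05 (-0.20), and without *Rbbp4Ins/Del* replicate 2 (-0.26), and over the libraries left out in turn its value ran from -0.26 to -0.15. At 0.05, *Sox1* was called in *Rbbp4Ins/Del* (0.27) and between the mutants (0.36). The near-zero *Sox11* difference between the mutants turned positive with DESeq2 (0.0051), with its size factors (0.0055), and without *Rbbp4Ins/Ins* replicate 3 (0.019) or *Rbbp4Ins/Del* replicate 2 (0.038), and ran from -0.038 to 0.038 over libraries left out. With all genes that had at least 1 read, *Zic1* was called in *Rbbp4Ins/Ins* (-2.64, edgeR adjusted p = 0.0056), while DESeq2 gave an adjusted p of 0.025.

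The test against a 2-fold change left 530 genes higher and 706 lower in *Rbbp4Ins/Ins*, 739 and 824 in *Rbbp4Ins/Del*, 0 and 0 between the mutants (21 and 6 at an unadjusted p under 0.05 in edgeR), and 1 higher and 6 lower neuronal differentiation genes. Between the mutants, 872 genes were higher and 655 lower, against 1426 and 1256 at a limit of 0.05 and 421 lower with DESeq2. With a library left out they ran from 576 to 943 higher and from 406 to 703 lower, the lower count falling to 406 without *Rbbp4Ins/Ins* replicate 1 and to 412 and 422 without *Rbbp4Ins/Del* replicates 2 and 3, and the higher count to 576 without *Rbbp4Ins/Del* replicate 2. The block changed the number of genes called from 8252 to 8225, from 8829 to 8795, and from 1527 to 1499, and apart from *Ncam1* it changed no call of the 6 genes. Of 87 and 88 called genes on the lists, 0 changed sign under the other scalings and DESeq2, which lost 6 and 5 calls. Depth limits *Zic1* and *Fabp7*, with at most 9 reads in a library.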

Other observations

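Markers of other early lineages were low in these libraries or moved in both directions. Across all genes tested, 26.7% were lower and 25.6% higher in both mutant lines. Of the trophectoderm markers, 4 of 7 tested were lower and 1 higher in both mutant lines, and their sum was 5039 to 5495 normalized counts in the control libraries, 2733 to 2913 in *Rbbp4Ins/Ins*, and 1877 to 1929 in *Rbbp4Ins/Del*. *Krt8* and *Krt18*, keratins of simple epithelia, carried most of that sum in the control, and *Tfap2c*, an AP-2 factor also expressed in ESCs, carried most of it in the mutants, with means of 1259.6, 1763, and 1086 normalized counts. *Krt8* and *Krt18* had log2 fold changes of -2.69 and -2.999 and of -2.45 and -2.98, and *Elf5* was at or under 3 reads per library in the control and in *Rbbp4Ins/Ins*. Of the primitive endoderm markers, 2 of 7 tested were lower and 1 higher in both lines. Their sum was 1405 to 1610 in the control, 1098 to 1214 in *Rbbp4Ins/Ins*, and 1681 to 1803 in *Rbbp4Ins/Del*. *Col4a1*, a collagen, made up most of that sum in each line, with means of 1139, 919, and 1415 normalized counts. Its log2 fold changes of -0.31 and 0.31 were both called, so the sum mainly follows this gene. The lines differed, with 1 marker higher and 3 lower in *Rbbp4Ins/Ins* and 5 higher and 2 lower in *Rbbp4Ins/Del*. Across all genes tested, 29% were higher and 29.4% lower in *Rbbp4Ins/Ins*, and 30.6% and 31.9% in *Rbbp4Ins/Del*. *Sox7*, a SoxF factor, rose in both lines at 1.63 and 2.22, while *Dab2*, an endocytic adaptor, fell at -1.35 and -1.29. Of the mesoderm and primitive streak markers, 1 of 5 tested was lower and 1 higher in both lines, with sums of 285 to 330, 394 to 421, and 382 to 401. *Eomes*, a T-box factor shared with the trophectoderm list, rose at 0.74 and 0.49 and made up most of these sums. The marker that was lower, *T*, had means of 44.6, 2.34, and 0.30 normalized counts, at or under 3 reads per library in both mutant lines. Its log2 fold changes were -4.17 and -6.58 (edgeR adjusted p = 1.7e-11 and 5.5e-13).

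Among the fibroblast markers, *Col1a2*, a collagen, was at means of 250.01 normalized counts in the control, 6.43 in *Rbbp4Ins/Ins*, and 9.28 in *Rbbp4Ins/Del*. *Twist1* and *Pdgfrb* had log2 fold changes of -1.17 and -1.26 and of -1.28 and -1.23.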
